A study of Homo sapiens with 6 samples.

Results

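UGT2B enzymes are UDP-glucuronosyltransferases of the endoplasmic reticulum, which join glucuronic acid to small molecules and so make them water-soluble. In the androgen-responsive prostate, glucuronidation of dihydrotestosterone (DHT) and its metabolites removes active androgen from the cell, and UGT2B15 and UGT2B17 are known for this role. UGT2B28 also acts on androgen metabolites, while UGT2B7, UGT2B10 and UGT2B11 are better known for other substrates: UGT2B7 takes drugs and a wide range of steroids, UGT2B10 conjugates nitrogen-containing drugs, and UGT2B11 is a less studied relative of UGT2B28.

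The rows of the deposited RNA-seq table with the symbols UGT2B7, UGT2B10, UGT2B11, UGT2B15, UGT2B17 and UGT2B28 were followed, 6 of the table's 21512 gene rows. UGT2B4, a relative that conjugates bile acids, is given beside them. The libraries came from LNCaP, an established androgen-responsive prostate cancer line, and from BicR, a prostate cancer line whose derivation the labels do not state. Cells of both lines had been in hormone-poor medium (phenol red-free, with 2.5% charcoal- and dextran-stripped serum) for 3 days, and were then given ethanol, 10 nM DHT or 1 µM of the antiandrogen bicalutamide over 24 h. There was 1 library for each line and treatment, 6 in all, so no condition has a replicate. The ethanol and bicalutamide libraries of a line, which received no DHT, are called androgen-free below. Triplets of values below are in the order ethanol, DHT, bicalutamide.

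Library totals ran from 42162723 to 55917016 counts, and a floor of 3 counts corresponded to 0.0553 to 0.0715 CPM (counts relative to the library size, scaled by TMM). The LNCaP ethanol library stood apart: the chaperone gene HSPA5 took 0.79% of its counts against 0.131% to 0.164% in the other 5, and where stated below, values are also given without it. The 15 luminal prostate markers summed to 6403 to 12480 CPM in LNCaP and 6764 to 15626 CPM in BicR. The 9 basal markers reached at most 46.3 CPM. The 10 mesenchymal markers summed to 2051 to 2293 CPM in LNCaP and 1325 to 2184 CPM in BicR. FN1 alone was at 1264 to 2227 CPM over the 6 libraries. The 10 neuroendocrine markers summed to 1587 to 2562 CPM in LNCaP and 772 to 821 CPM in BicR, with SYT4 alone at 669 to 2444 CPM. The 10 immune markers summed to 49.7 to 59.4 CPM in LNCaP and 18.6 to 30.1 CPM in BicR, with the leukocyte gene PTPRC at 0 in every library. Between the lines 1 of 4 tested immune markers was called, HLA-DRA, an antigen-presentation gene, lower in BicR by -1.72 (adjusted p = 0.00433, edgeR). Also lower were 1 of 4 tested neuroendocrine markers (SYT4) and 2 of 7 mesenchymal ones (COL3A1 and COL1A1). The same held for 1 of 3 tested basal markers (NGFR) and 1 of 3 intestine ones (LGALS4). Of 14 tested luminal markers 4 were higher in BicR and 1 lower. Over all genes 1.58% were called higher and 2.84% lower. Bulk RNA cannot tell fewer cells of a type from less RNA per cell. FKBP5, an androgen-induced co-chaperone gene, was highest under DHT in both lines, at 43.0, 132 and 56.7 CPM in LNCaP, and at 56.5, 712 and 54.2 CPM in BicR.

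UGT2B15 carried most of the family's RNA in 5 of the 6 libraries, and the BicR DHT library was the exception. On the deposited RPKM, which is per length and so allows genes to be compared, UGT2B15 stood at 32.4, 35.0 and 52.4 in LNCaP and at 16.9, 6.04 and 16.7 in BicR. UGT2B11 was next in those 5 libraries, with RPKM of 8.70, 14.1 and 14.8 in LNCaP and 1.77 and 1.88 in the androgen-free BicR libraries. In the BicR DHT library UGT2B11 reached 7.56 RPKM and stood above UGT2B15. UGT2B10, UGT2B28 and UGT2B17 were between 0.0749 and 1.92 RPKM, in that descending order in all 3 LNCaP libraries. In both androgen-free BicR libraries UGT2B17 stood above UGT2B28, while in BicR DHT UGT2B28 was the highest of these 3 genes.

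As a share of the 6 members' summed RPKM, UGT2B15 made up 75.3%, 66.6% and 74.2% in LNCaP. In BicR its share was 86.5% under ethanol, 37.0% under DHT and 85.9% under bicalutamide. Over the same BicR libraries UGT2B11 held 9.05%, 46.4% and 9.69%, and UGT2B28 held 0.939%, 11.2% and 0.794%. The summed RPKM of the 6 members was 19.6, 16.3 and 19.4 in BicR, so the composition differed far more than the total. In LNCaP the sum was 43.1, 52.5 and 70.6, higher than in any BicR library. Shares computed from raw counts differed from these by less than their 95% binomial intervals for UGT2B15, for example 37.4% (35.2% to 39.6%, Clopper-Pearson) in the BicR DHT library. These intervals, and those of ratios below, cover counting error only.

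**Figure D1:**
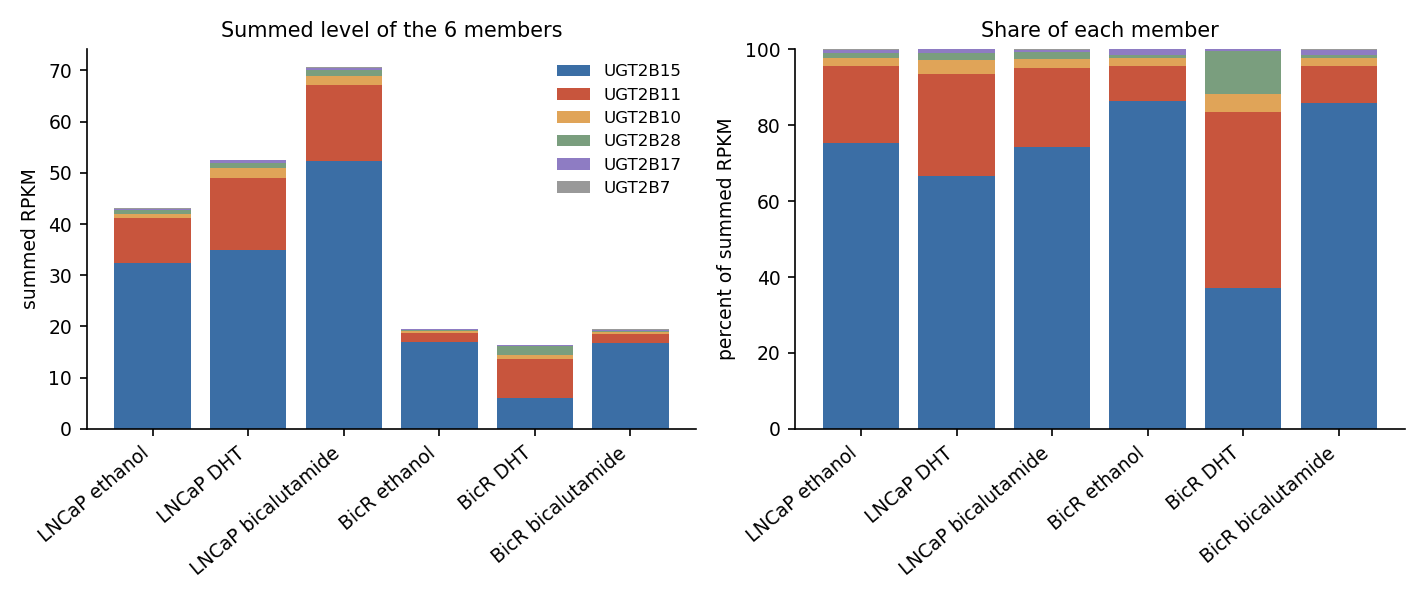
Summed RPKM of the 6 UGT2B genes per library (left) and the percent of that sum carried by each gene (right), 1 library per bar. UGT2B15 fills 66.6% to 86.5% of every bar except BicR DHT, where it fills 37.0% and UGT2B11 46.4%.

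UGT2B15 and UGT2B11 lie in the same cluster on chromosome 4, where RefSeq (GRCh38.p14) orders the protein-coding genes UGT2B17, UGT2B15, UGT2B10, UGT2A3, UGT2B7, UGT2B11, UGT2B28 and UGT2B4, with TMPRSS11E and SULT1B1 outside them. The 250 bases before the RefSeq start of each gene are shown because these genes diverged under DHT in BicR. The UGT2B15 promoter is chr4:68670653-68670902 on the minus strand and that of UGT2B11 is chr4:69214749-69214998, also on the minus strand. Capitals in UGT2B15 mark the FOXA core TGTTTAC, which lies on the opposite strand and so appears as its reverse complement.
UGT2B15: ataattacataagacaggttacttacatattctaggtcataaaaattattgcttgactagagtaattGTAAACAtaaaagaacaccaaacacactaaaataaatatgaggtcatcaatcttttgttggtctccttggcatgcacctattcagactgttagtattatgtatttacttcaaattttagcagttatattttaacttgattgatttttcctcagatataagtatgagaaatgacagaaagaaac
UGT2B11: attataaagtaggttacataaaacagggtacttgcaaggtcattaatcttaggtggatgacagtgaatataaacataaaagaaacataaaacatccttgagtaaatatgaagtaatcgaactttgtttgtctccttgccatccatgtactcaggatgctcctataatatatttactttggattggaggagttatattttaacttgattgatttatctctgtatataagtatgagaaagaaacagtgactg

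The FOXA core began 183 bases before the start of UGT2B15. UGT2B7 (chr4:69096224-69096473, plus strand), UGT2B10 (chr4:68815744-68815993, plus strand) and UGT2B11 lacked the exact FOXA core in this window, on either strand. At the aligned place each of these promoters reads ATAAACA, which differs from the GTAAACA of UGT2B15 only at its first base. Only exact matches were searched for, and the effect of this base on binding was not tested. The HNF1-type letters GTTAAT were found in none of the 4 windows, nor was the octamer ATTTGCAT. Of 35116 RefSeq promoter windows of the same length, 2.98% held the FOXA core, 6.23% the HNF1-type letters and 1.63% the octamer. The motifs were chosen after the sequences were seen, and a match is a description of letters, not a binding site. The region around the FOXA core is aligned here to show how the relatives differ; capitals mark the core in UGT2B15 and, in the others, bases that differ from UGT2B15 or are inserted.
UGT2B15, chr4:68670822-68670851, minus strand: cttgactagagtaattGTAAACAtaaaaga
UGT2B10, chr4:68815800-68815830, plus strand: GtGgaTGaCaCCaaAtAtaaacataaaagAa
UGT2B11, chr4:69214916-69214946, minus strand: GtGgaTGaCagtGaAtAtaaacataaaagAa
UGT2B7, chr4:69096282-69096312, plus strand: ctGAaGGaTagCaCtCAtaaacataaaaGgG

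Over the 250 bases, UGT2B10 and UGT2B11 were 93.1% identical, and UGT2B15 was 77.4% identical to either. UGT2B7 was the most distant, at 68.6% to 73.0%. The promoters of UGT2B17, UGT2B28 and UGT2B4 were not analysed here. The longest protein-coding transcript of each gene (GENCODE 29) was compared too. There UGT2B15 and UGT2B17 were 92.6% identical, UGT2B11 and UGT2B28 96.9%, UGT2B10 and UGT2B11 94.4%, and UGT2B15 and UGT2B11 80.9%. UGT2B7, the most distant by promoter, was by transcript 92.5% identical to UGT2B10, 91.8% to UGT2B11 and 84.4% to UGT2B15. Of all 50-base stretches, UGT2B15 shared 557 of 2028 (27.5%) with UGT2B17 and 0 with UGT2B10, UGT2B11 or UGT2B28. UGT2B11 shared 369 of 2039 (18.1%) with UGT2B28 and 199 (9.76%) with UGT2B10. UGT2B10 shared 110 of 1882 with UGT2B7 and 101 with UGT2B28. Reads can thus be split between UGT2B15 and UGT2B17, and among UGT2B7, UGT2B10, UGT2B11 and UGT2B28. Few 50-base stretches were shared between these sets: UGT2B17 shared 3 with UGT2B10 and 3 with UGT2B11. Of 25-base stretches, UGT2B17 shared 70 of 2053 with UGT2B10 and 857 with UGT2B15. Neither the read length nor the authors' placing of such reads is given in the sources used here, so splitting between the sets was not tested.

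UGT2B15 was expressed in every library. It stood at 92.8, 98.4 and 140 CPM in LNCaP, and at 44.4, 17.1 and 44.3 CPM in BicR. All 3 LNCaP libraries lay above all 3 BicR libraries, and the BicR DHT library was the lowest of all. In BicR the DHT library was at 0.384 times ethanol (95% interval 0.353 to 0.418) and 0.386 times bicalutamide (0.354 to 0.420). In LNCaP it was at 1.06 times ethanol (1.02 to 1.10) and 0.704 times bicalutamide (0.679 to 0.729), so the side of 1 depended on which androgen-free library was used.

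UGT2B17, the close copy of UGT2B15, was low: 50, 94 and 72 counts in LNCaP against 45, 10 and 37 in BicR. These are 1.00, 1.73 and 1.38 CPM against 0.864, 0.238 and 0.753 CPM. The lowest LNCaP library lay just above the highest BicR library, within counting error, and the BicR DHT library was again the lowest. DHT went with 0.276 times the ethanol level in BicR (0.124 to 0.555) and 0.317 times that of bicalutamide (0.140 to 0.650). In LNCaP it was at 1.73 times ethanol (1.22 to 2.49) and 1.25 times bicalutamide (0.913 to 1.73). UGT2B17 had 0.987 to 1.95 counts per 100 of UGT2B15, over libraries in which UGT2B15 itself ran from 716 to 7296 counts. This ratio was not constant beyond counting error: it was 0.987 in LNCaP bicalutamide (0.771 to 1.24) and 1.76 in LNCaP DHT (1.42 to 2.16).

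UGT2B11 moved the other way in BicR. Its level was 23.0, 36.8 and 36.5 CPM in LNCaP, and 4.30, 19.8 and 4.62 CPM in BicR. The lines did not overlap, but the BicR DHT library came close to LNCaP ethanol. DHT in BicR was at 4.60 times ethanol (3.97 to 5.36) and 4.28 times bicalutamide (3.70 to 4.98). In LNCaP the DHT library was at 1.60 times ethanol (1.49 to 1.72) and 1.01 times bicalutamide (0.946 to 1.07), the latter indistinguishable from 1 by counting error alone.

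UGT2B28 showed the widest range within BicR. It had 95, 140 and 171 counts in LNCaP (1.90, 2.58 and 3.28 CPM) and 25, 216 and 20 counts in BicR (0.480, 5.15 and 0.407 CPM). The BicR DHT library was the highest of the 6 and the androgen-free BicR libraries were the lowest. DHT in BicR was at 10.7 times ethanol (7.07 to 16.9) and 12.7 times bicalutamide (7.99 to 21.1). In LNCaP the DHT library was at 1.36 times ethanol (1.04 to 1.78) and 0.787 times bicalutamide (0.625 to 0.990). Under DHT the gene was 2.0 times as high in BicR as in LNCaP (1.61 to 2.49), and it was the only one of the 6 that was higher in BicR under any treatment. It had 26.0 counts per 100 of UGT2B11 in the BicR DHT library (22.3 to 30.3), against 7.01 to 11.2 in the other 5, so its counts did not run in a fixed ratio to those of its nearest copy.

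UGT2B10 stood at 3.88, 8.11 and 6.59 CPM in LNCaP, and at 1.56, 3.36 and 1.67 CPM in BicR. The lines did not overlap. DHT was at 2.09 times ethanol in LNCaP (1.76 to 2.49) and 2.16 times ethanol in BicR (1.63 to 2.88). Against bicalutamide the values were 1.23 in LNCaP (1.07 to 1.42) and 2.01 in BicR (1.52 to 2.68). UGT2B7 had 10, 4 and 14 counts in LNCaP against 0, 1 and 4 in BicR. Most of these are at or near the floor, the 0 allows up to 3 counts or 0.0576 CPM, and no change was read from them. UGT2B4 had 77, 85 and 71 counts in LNCaP against 10, 36 and 21 in BicR, with DHT in BicR at 4.47 times ethanol (2.17 to 10.1) and 2.01 times bicalutamide (1.14 to 3.62).

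**Figure D2:**
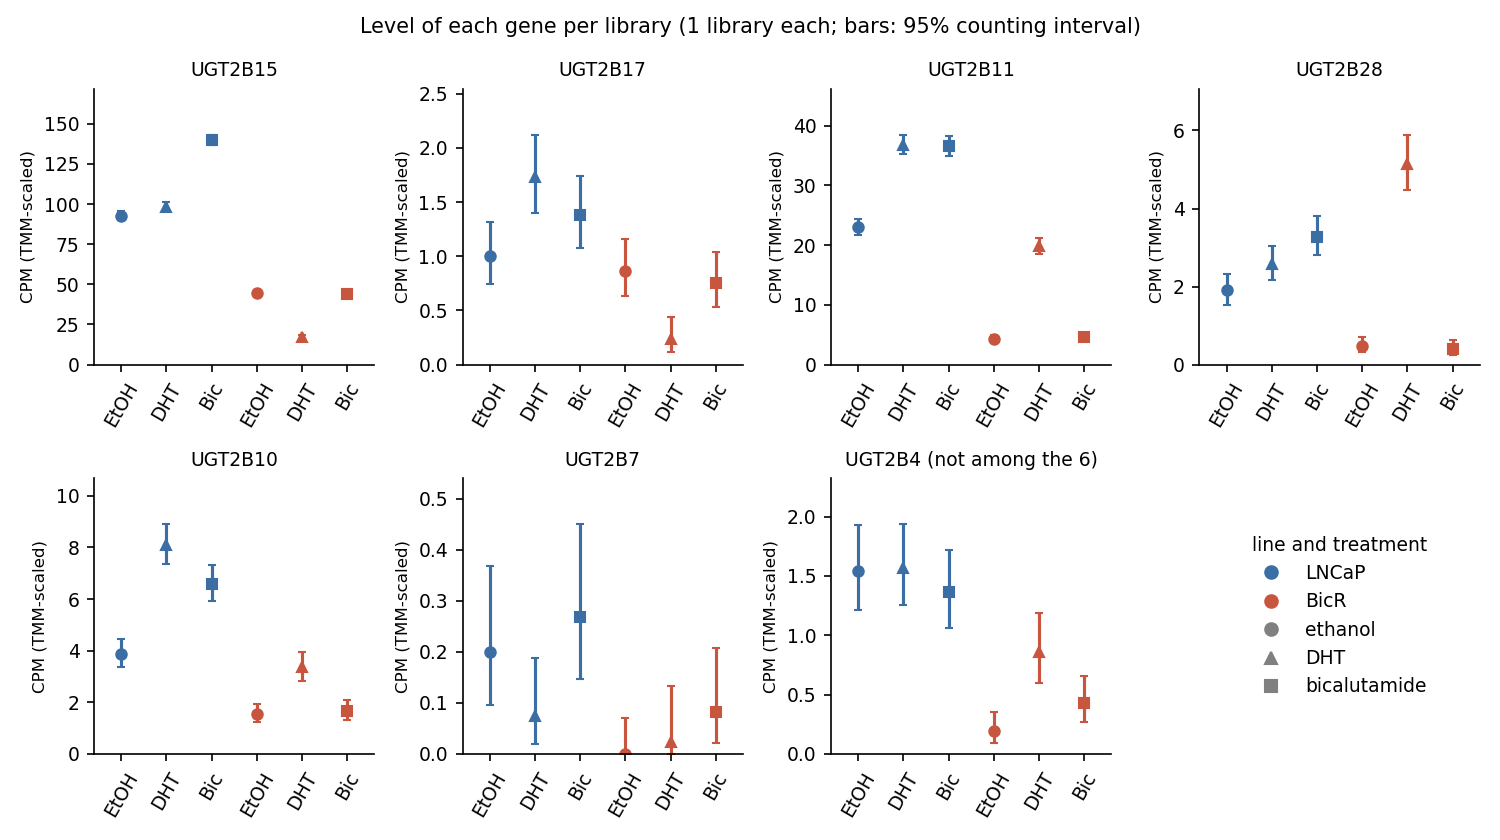
Level of each UGT2B gene in CPM (linear axes from 0, scaled per gene) in the 6 libraries, ethanol, DHT and bicalutamide in each line; points are single libraries and bars 95% counting intervals. In BicR the DHT library is the lowest for UGT2B15 (17.1 CPM) and UGT2B17 (0.238 CPM) and the highest for UGT2B11 (19.8 CPM), UGT2B28 (5.15 CPM) and UGT2B10 (3.36 CPM).

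**Figure D3:**
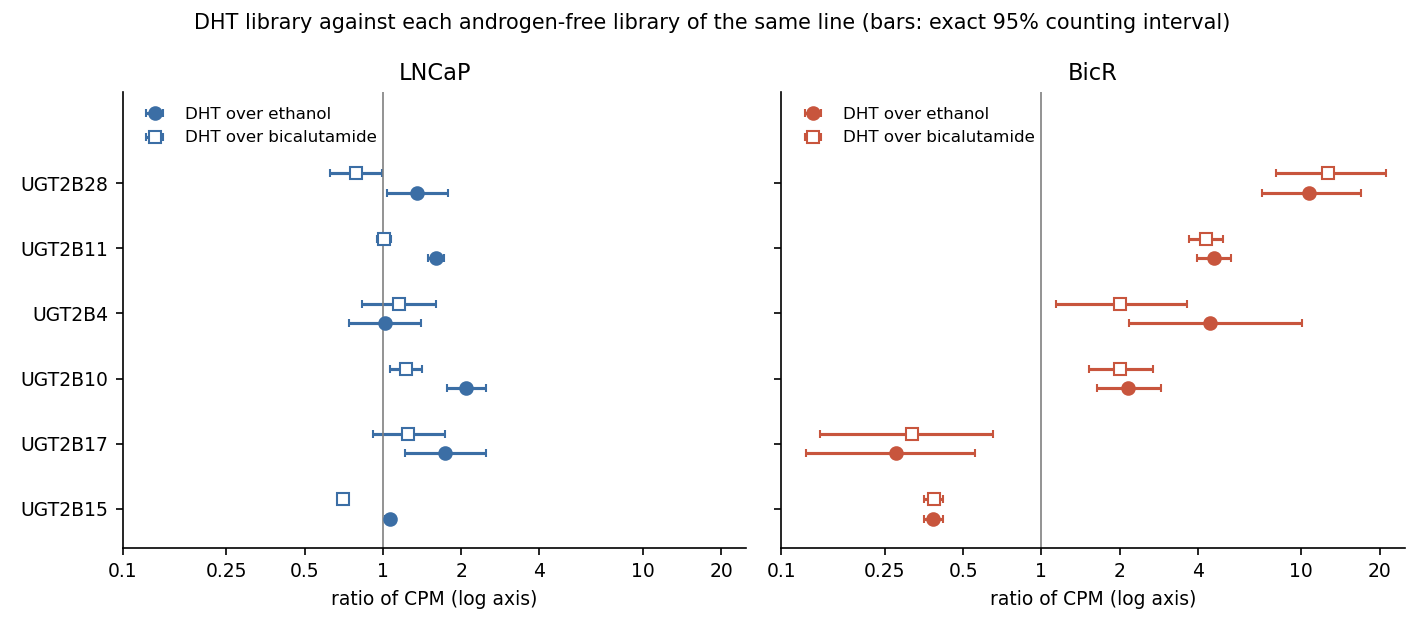
Ratio of the DHT library to the ethanol library (filled circles) and to the bicalutamide library (open squares) of the same line, on a log axis, with exact 95% counting intervals and a line at 1. In BicR both ratios fall below 1 for UGT2B15 and UGT2B17 and above 1 for the other 4 genes, up to 12.7 for UGT2B28; in LNCaP no ratio exceeds 2.09.

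Members were also counted by the size of the difference between libraries. A gene was counted where libraries differed by at least 2-fold on log2(CPM + 1), a scale that understates the change of low genes. Between DHT and ethanol in BicR, UGT2B11 and UGT2B28 were higher and UGT2B15 lower by this rule, 3 of the 5 members that had a mean of at least 20 counts, where 2.38% of 13885 genes were counted. DHT against bicalutamide in BicR gave the same counts, 2 higher and 1 lower, with 2.46% of genes counted. None of the 5 was counted in LNCaP for DHT against ethanol (2.59% of genes), DHT against bicalutamide (2.47%) or bicalutamide against ethanol (2.6%). For bicalutamide against ethanol in BicR 0% of genes were counted, members included. These counts compare single libraries and carry no test. The members were chosen with earlier results of these data known, and UGT2B11 and UGT2B28 can share reads. The shares over all genes are therefore no test of the family.

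The question of whether DHT changed the genes within BicR was put to a model that treats the ethanol and bicalutamide libraries of a line as androgen-free, so that their difference is the error and any effect of bicalutamide counts as noise. UGT2B28 was higher with DHT, at a log2 fold change of 3.53 (SE 0.41, adjusted p = 0.0327, edgeR's quasi-likelihood test with Benjamini-Hochberg adjustment) and UGT2B11 at 2.15 (SE 0.29, adjusted p = 0.0498). Across the 13885 genes tested, 0.807% were called higher and 0.187% lower, and 2 of 5 members were called higher and 0 lower. UGT2B10, at 1.06 (SE 0.38, adjusted p = 0.407), did not pass, and neither did UGT2B4, at 1.47 (SE 0.52, adjusted p = 0.398). UGT2B15, at -1.38 (SE 0.28, adjusted p = 0.151), and UGT2B17, at -1.75 (SE 0.48, adjusted p = 0.257), did not pass in the edgeR fit, while DESeq2 called UGT2B15 lower (-1.38, adjusted p = 0.000245). The UGT2B11 call lay at the threshold: the adjusted p was 0.0513 with RLE scaling, 0.0620 with only genes of at least 100 mean counts, and 0.0810 with limma on RPKM, and it ran from 4.42e-08 to 0.0810 over the alternatives with all libraries. Without LNCaP ethanol or without LNCaP bicalutamide the error rests on the BicR pair alone; 3940 and 3953 genes then passed, and all 5 members with them, UGT2B15 and UGT2B17 as lower.

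In LNCaP the same fit called 0 of the 5 members and 0% of all genes, although 1563 genes had an unadjusted p under 0.05. UGT2B10 had the largest estimate, 0.63 (SE 0.36, adjusted p = 0.533), followed by UGT2B17 at 0.54 (SE 0.35, adjusted p = 0.573). UGT2B11 was at 0.31, UGT2B15 at -0.24 and UGT2B28 at -0.01. DESeq2 called 112 genes in this comparison, none of them a member. The reference genes KLK3, at 2.14 (SE 0.26, adjusted p = 0.243), and FKBP5, at 1.40 (SE 0.20, adjusted p = 0.313), did not pass either. Without the LNCaP ethanol library UGT2B15 passed as lower (-0.51), and without LNCaP bicalutamide UGT2B10 (1.06) and UGT2B11 (0.68) passed as higher, with 6812 and 4762 genes passing in all.

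Whether the DHT response differed between the lines was tested as an interaction. The difference, BicR minus LNCaP, was 3.54 for UGT2B28 (SE 0.60, unadjusted p = 0.00143, adjusted p = 0.353), 1.84 for UGT2B11 (SE 0.43, adjusted p = 0.366), -2.29 for UGT2B17 (SE 0.59, unadjusted p = 0.00994, adjusted p = 0.397) and -1.14 for UGT2B15 (SE 0.38, adjusted p = 0.447). UGT2B10, at 0.43 (SE 0.53, adjusted p = 0.798), differed least. No gene passed in edgeR (0%). Of the 13885 genes tested, 1428 (10.3%) had an unadjusted p under 0.05, among them 4 of the 5 members. DESeq2 called 151 genes, with UGT2B28 (adjusted p = 0.00278) and UGT2B11 (adjusted p = 0.0147) among them. Without the LNCaP ethanol library 5 members passed, and without LNCaP bicalutamide 4 did (all but UGT2B10), among 6288 and 4600 genes. Of the reference genes, FKBP5 differed by 2.28 (SE 0.30, adjusted p = 0.258, edgeR), in the direction of a larger response in BicR. KLK3 differed by only -0.14 (SE 0.39, adjusted p = 0.915, edgeR).

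**Figure D4:**
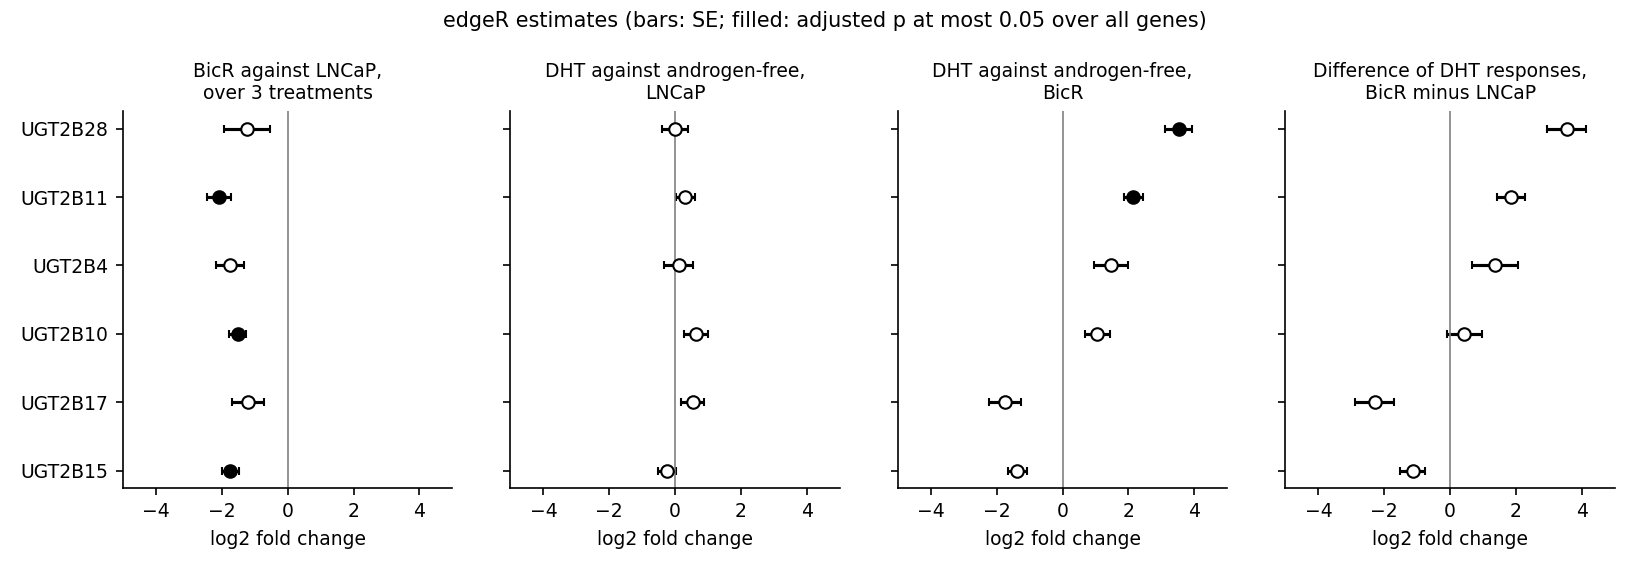
Log2 fold changes with SE bars for UGT2B genes in 4 edgeR comparisons over the 6 libraries; filled points passed at an adjusted p of 0.05 over 13885 genes. Filled are UGT2B10, UGT2B11 and UGT2B15 for BicR against LNCaP, and UGT2B11 and UGT2B28 for DHT in BicR.

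BicR held less UGT2B RNA than LNCaP. With treatment as a covariate, UGT2B15 was lower in BicR by a log2 difference of -1.74 (SE 0.26, adjusted p = 0.0118, edgeR), UGT2B11 by -2.09 (SE 0.36, adjusted p = 0.0196) and UGT2B10 by -1.52 (SE 0.26, adjusted p = 0.0189), and each was lower in 3 of 3 matched treatments. UGT2B17, at -1.19 (SE 0.49, adjusted p = 0.174), UGT2B28, at -1.23 (SE 0.70, adjusted p = 0.305), and UGT2B4, at -1.75 (SE 0.44, adjusted p = 0.0595), did not pass. Thus 3 of 5 members were called lower, where 2.84% of genes were. The ratio depended on the treatment: for UGT2B15 it was 0.479, 0.173 and 0.316, and for UGT2B11 0.187, 0.538 and 0.127. Without LNCaP bicalutamide 0 genes of all tested passed and the 3 calls were lost. The estimates were then -1.79 for UGT2B15, -1.64 for UGT2B11 and -1.29 for UGT2B10. The 3 calls were also lost without BicR bicalutamide, again with 0 genes passing. Without any one of the other 4 libraries 4 members passed, where 461 to 694 of 13885 genes did. The fourth was UGT2B17 without either ethanol library and UGT2B28 without either DHT library. Without LNCaP ethanol the estimates were -2.09 for UGT2B15, -1.92 for UGT2B11, -1.62 for UGT2B10, -1.74 for UGT2B17, -0.79 for UGT2B28 and -1.25 for UGT2B4. The estimate for UGT2B28 rested most on single libraries: it was -0.36 without either bicalutamide library and -2.49 without either DHT library, and that for UGT2B17 was -0.54 without either DHT library. The 16 liver markers summed to 70.6 to 89.2 CPM in LNCaP and 96.3 to 119 CPM in BicR, with APOB, APOC3 and FGB at 0 throughout. CPS1, a urea cycle gene, made up most of this sum, at 58.2 to 78.6 CPM in LNCaP and 87.4 to 108 CPM in BicR, and the other 15 summed to 10.5 to 21.6 CPM in LNCaP and 8.99 to 10.6 CPM in BicR; their part in these differences was not tested.

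Treatment effects common to both lines were tested in the same additive fit, in which disagreement between the lines is the error. For DHT against ethanol 0 of 5 members passed in edgeR, where 0.166% of genes did, although 3 members had an unadjusted p under 0.05, as did 782 of all genes (5.63%). UGT2B28 stood at 2.21 (SE 0.82, adjusted p = 0.784), UGT2B11 at 1.53 (SE 0.43, adjusted p = 0.507), UGT2B10 at 1.09 (SE 0.31, adjusted p = 0.530) and UGT2B15 at -0.63 (SE 0.31, adjusted p = 0.958). DESeq2 called UGT2B11 (adjusted p = 0.0131). UGT2B11 and UGT2B28 passed without LNCaP ethanol, at 1.77 and 2.76, and without LNCaP DHT, at 2.35 and 3.71. Without BicR DHT they were at 0.53 (adjusted p = 0.738) and 0.22 (adjusted p = 0.971), so these estimates over both lines rest on that library. UGT2B17 was at -0.25 (SE 0.59), and turned to 0.44 without BicR ethanol and 0.62 without BicR DHT. For bicalutamide against ethanol, which shares the ethanol libraries, edgeR and DESeq2 called 0 members and 0% of genes, 141 genes had an unadjusted p under 0.05, and the members' estimates ran from 0.08 for UGT2B17 to 0.51 for UGT2B28.

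Bicalutamide and ethanol gave near-equal UGT2B levels in BicR. The ratio of bicalutamide to ethanol there was 0.997 for UGT2B15 (0.939 to 1.06), 1.07 for UGT2B11 (0.889 to 1.30), 1.07 for UGT2B10 (0.779 to 1.48), 0.871 for UGT2B17 (0.548 to 1.38) and 0.848 for UGT2B28 (0.447 to 1.59). All 5 intervals include 1, while that of UGT2B4, with 21 and 10 counts, was 2.23 (1.00 to 5.29). In LNCaP the same ratio was 1.51 for UGT2B15 (1.45 to 1.56), 1.59 for UGT2B11 (1.47 to 1.71), 1.70 for UGT2B10 (1.42 to 2.04), 1.72 for UGT2B28 (1.33 to 2.24) and 1.38 for UGT2B17 (0.949 to 2.02). The LNCaP ethanol library, which held the high HSPA5 share, was the lowest of the LNCaP libraries for all 5 genes; the part of that library's state in these ratios was not tested.

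Other genes of the glucuronidation pathway were measured with the same tests, from lists set out with earlier results of these data known. Of 16 other UDP-glucuronosyltransferases 3 had a mean of at least 20 counts: UGT2B4, UGT1A6 and UGT8. None of the 3 passed for BicR against LNCaP or for DHT in BicR, with medians of -0.83 and -0.37 against -0.00 and 0.00 over all genes. The largest estimates of the 3 were those of UGT2B4, at -1.75 and 1.47. UGT8, which makes galactolipids, was the highest of them, at 4.40 to 8.05 CPM. UGT1A6, a phenol-conjugating enzyme, was at 0.286 to 1.57 CPM, and UGT2A1, UGT2A2 and UGT2A3 were at 0 everywhere. The 12 genes that supply and handle UDP-glucuronic acid gave 11 tested genes and 0 calls in either comparison, with medians of -0.05 and 0.01. UGDH, which makes UDP-glucuronic acid, stood at 102, 104 and 143 CPM in LNCaP and 96.1, 91.2 and 84.7 CPM in BicR, and the glycolytic gene HK2 moved most with DHT in BicR, at 0.80 (SE 0.19, adjusted p = 0.202).

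Enzymes that make or inactivate androgens (32 listed, 20 tested) also gave 0 calls in either comparison, with medians of -0.20 and -0.02. Largest with DHT in BicR were HSD3B1, a steroid-synthesis gene, at -1.89 (SE 0.52, adjusted p = 0.261), and AKR1C3, which makes testosterone, at -1.21 (SE 0.22, adjusted p = 0.116). AKR1C3 stood at 12.6, 5.22 and 11.6 CPM in BicR. Between the lines HSD17B3, at -1.67 (SE 0.67, adjusted p = 0.170), HSD17B8, at -1.07 (SE 0.34, adjusted p = 0.101), and AKR1C2, which reduces DHT, at -0.79 (SE 0.20, adjusted p = 0.0638), were largest and did not pass. Without LNCaP ethanol HSD17B3 was at -0.59 and HSD17B8 at -0.57, and AKR1C2 passed, at -0.99 (adjusted p = 0.00800).

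Sulfation is the other main route of steroid conjugation. Of 8 tested genes 4 did not pass between the lines, 1 was higher in BicR (1.58% of all genes were) and 3 were lower (2.84% of all genes): SULT1A2 at -1.29 (SE 0.24, adjusted p = 0.0246), SULT2B1, which sulfates cholesterol and related sterols, at -1.27 (SE 0.24, adjusted p = 0.0273), and SULT1A1 at -0.95 (SE 0.18, adjusted p = 0.0267). SULT1A1 and SULT1A2 are near-identical copies and may share reads. STS, which removes sulfate from steroids, was higher, at 1.09 (SE 0.23, adjusted p = 0.0388). Without LNCaP ethanol SULT1A1 did not pass (-0.75, adjusted p = 0.0643), while SULT1A2 (-1.13), SULT2B1 (-1.33) and STS (1.09) did. The list's median was -0.16, and 0 of the 8 passed for DHT in BicR, with a median of 0.01.

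Of 11 tested transporters, 2 were higher with DHT in BicR (0.807% of all genes were) and 1 lower in BicR than in LNCaP (2.84% of all genes). ABCC4, among those higher with DHT, is also in the androgen-induced reference list given below, and so is counted in both lists. ABCC4, an exporter of conjugated steroids and cyclic nucleotides, stood at 98.7, 173 and 120 CPM in LNCaP and 83.3, 566 and 83.3 CPM in BicR, a DHT effect in BicR of 2.76 (SE 0.17, adjusted p = 0.00980). ABCC1, an exporter of glutathione and glucuronide conjugates, was at 163, 374 and 156 CPM in BicR, an effect of 1.23 (SE 0.15, adjusted p = 0.0338). ABCC3, another exporter of glucuronides, was low in all libraries, at 0.0238 to 1.25 CPM, and lower in BicR by -2.62 (SE 0.47, adjusted p = 0.0230), or -2.68 without LNCaP ethanol. The median of the 11 was -0.28 for DHT in BicR and -0.01 between the lines.

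Of 19 tested transcription factors linked to UGT2B genes, CEBPA, a differentiation factor of liver and myeloid cells, was lower in BicR, at -1.09 (SE 0.24, adjusted p = 0.0439), or -1.29 without LNCaP ethanol. It was the only one of the 19 called between the lines, where 2.84% of all genes were called lower. CEBPA was at 74.4, 89.9 and 62.6 CPM in LNCaP and 44.9, 24.1 and 39.2 CPM in BicR; its DHT effect there, -0.80 (SE 0.20, adjusted p = 0.211), did not pass, and 0 of the 19 did. FOXA1, a pioneer factor of luminal prostate cells, was at 603 to 914 CPM in all libraries. The bile acid receptor gene NR1H4 and the xenobiotic receptor gene NR1I3 were at 0 in all 6. The medians of the 19 were 0.01 between the lines and -0.25 for DHT in BicR.

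Genes around the cluster on chromosome 4 (23 in the table, UGT2B4 among them) were mostly silent: 12 were at 0 in every library and 5 had a mean of at least 20 counts. None of the 5 passed in either comparison, with medians of -0.03 and 0.00. TMPRSS11E, the serine protease gene next to UGT2B17 in the RefSeq order, stood at 4.46, 2.54 and 3.34 CPM in LNCaP and 1.56, 2.81 and 2.10 CPM in BicR.

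Reference lists place the members beside other genes listed as androgen-responsive. The lists were set with earlier results of these data known, so their calls and medians are no independent yardstick. Of 24 tested androgen-induced genes 23 were higher with DHT in BicR (0.807% of all genes were), with a median of 2.80. UGT2B11 at 2.15 lay below that median and UGT2B28 at 3.53 above it, near KLK2, a kallikrein gene, at 3.34 (SE 0.24, adjusted p = 0.0101). Of 20 tested androgen-repressed genes 7 were lower with DHT in BicR (0.187% of all genes were), with a median of -1.70. UGT2B15 at -1.38 and UGT2B17 at -1.75 lay near it. CXCR7, a chemokine receptor gene of that list, had an estimate of -1.57 (SE 0.18, adjusted p = 0.0315, edgeR), of a size like that of UGT2B15 but with a smaller SE. For DHT in LNCaP 0 genes of either list were called, with medians of 1.91 for the induced and -0.49 for the repressed genes.

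By the Pearson correlation of log2(CPM + 1) over the 6 libraries, the genes most like UGT2B15 were CHRNA3 (0.998), a nicotinic receptor subunit, BCHE (0.995), butyrylcholinesterase, CFB (0.987), complement factor B, GULP1 (0.984) and KLHL1 (0.982). BCHE stood at 236, 250 and 416 CPM in LNCaP and 51.6, 11.2 and 44.6 CPM in BicR, the same order of the 6 libraries as UGT2B15. The genes most like UGT2B11 were HGD (0.987), which degrades homogentisate, CRISP3 (0.964), a secreted prostate and salivary protein gene, C2orf72 (0.959), UNC5A (0.954) and NRP1 (0.948). HGD was at 31.7, 43.0 and 42.9 CPM in LNCaP and 14.3, 25.1 and 13.3 CPM in BicR, a smaller spread between the BicR libraries than that of UGT2B11. A correlation over 6 libraries that share 2 lines is a description: 27 of 983 candidate genes exceeded 0.95 for UGT2B15 and 4 of 556 for UGT2B11.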

How the data were processed

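RNA was measured in 6 libraries, 1 per line and treatment. Per the labels' protocols, ISOGEN was used to prepare total RNA and the sequencer was a SOLiD 3 Plus. The deposited table gave raw counts and RPKM per gene symbol, both made by the authors, with hg19 as the build per the submitters' processing notes; aligner, counter, annotation and strand setting: not given in the sources used here. It held 21512 rows, of which 2988 were at 0 throughout and 27 had date-like names.

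Counts were scaled by TMM and tested with edgeR 4.0.16 (R 4.3.3), quasi-likelihood, 2-sided, on the 13885 genes whose mean reached 20 counts, with Benjamini-Hochberg adjustment over all of them at 0.05. The additive fit (line plus treatment) had 2 residual and 6.8 prior degrees of freedom, and the fit of DHT within each line had 2 and 3.49; there the lone DHT library of a line is assumed to vary as the others do. Nothing states that libraries came from separate cultures, so the spread behind the p-values may be technical. Of the 6 members 5 were tested and UGT2B7 was not. Ratios carry exact 95% intervals on the summed count. Alternatives were RLE scaling, DESeq2 1.42.0, limma 3.58.1 on log2(RPKM + 0.1), mean counts of 1 and 100, pseudocounts of 0.1 and 5 CPM, each library left out and, added after seeing the data, near-identical genes summed. The scripts were tested on simulated data. RefSeq promoters (GRCh38.p14) were matched by symbol for 4 of 6 members.

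The members and lists were chosen with earlier results of these data known. The genes named were all members, UGT2B4, KLK3, FKBP5, in each list the 3 with the largest change and any that passed, and the 5 most correlated with each of UGT2B15 and UGT2B11 among genes with at least 0.5 of its SD. Some of these are left out, and 1 gene that the rule and the list of transcription factors held is not reported here; genes given for their role in the pathway (UGDH, FOXA1, CXCR7 and those at 0) were chosen after their values were seen.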

Additional observations from a re-analysis of the deposited data

Results flagged for a closer look

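UGT2B17 had opposite signs in the lines: it was higher with DHT than in both androgen-free libraries of LNCaP and lower than in both of BicR. The difference of the DHT response, BicR minus LNCaP, was -2.29 on the log2 scale (SE 0.59, unadjusted p = 0.00994, edgeR) and did not pass adjustment over all genes (adjusted p = 0.397). It rests on 10 counts in the BicR DHT library, and UGT2B17 shares 27.5% of its 50-base stretches with UGT2B15; the part of shared reads in it was not tested.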

How the results depend on the processing

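With 1 library per line and treatment, and 2 residual degrees of freedom, the calls depended on single libraries. No paired analysis was possible because the labels give no replicate numbers; the additive fit matches the lines only by treatment. The number of members called for DHT against ethanol was 0, and 1 with DESeq2 and 0 to 2 as each library was left out (0 to 273 genes in all, 23 in the fit as reported, 99 with DESeq2, 52 and 15 with mean counts of at least 1 and 100). For BicR against LNCaP it was 3, and 0 to 4 on leaving libraries out (0 to 694 genes in all, 614 as reported, 1490 with DESeq2, 1030 and 365 with the other minimums). For DHT in BicR it was 2, and 1 with RLE, with limma on RPKM and with a mean count of at least 100, and 2 to 5 on leaving libraries out (108 to 3953 genes, 138 as reported, 404 with DESeq2). For DHT in LNCaP it was 0, and 0 to 2 on leaving libraries out (0 to 6812 genes, 0 as reported, 112 with DESeq2, 5 with a mean count of at least 1). For the difference of the DHT response it was 0, 2 with DESeq2 and 0 to 5 on leaving libraries out (0 to 6288 genes, 151 with DESeq2). For bicalutamide against ethanol it was 0 throughout, with 197 genes passing without BicR ethanol and 1 with limma.

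Members counted at 2-fold between DHT and ethanol went from 0 to 1 in LNCaP with a pseudocount of 0.1 or with RPKM, and from 3 to 5 in BicR with a pseudocount of 0.1. The share of all genes counted at these settings was not computed, so these counts have no background to be read against. Estimates that changed sign and had not passed were UGT2B28 for DHT in LNCaP (0.012 with limma, -0.35 to 0.44 as libraries were left out), UGT2B15 there (-0.51 to 0.085), UGT2B17 for DHT over both lines (-1.68 to 0.62) and UGT2B10 for the difference of responses (-0.0017 to 0.76). For bicalutamide over both lines they were UGT2B15 (-0.21 to 0.82), UGT2B17 (-0.62 to 0.90), UGT2B11 (-0.35 to 0.99), UGT2B28 (-1.27 to 1.37) and UGT2B4 (-0.35 to 1.39), again as libraries were left out. The cause was not tested. Summing near-identical genes left UGT2B11 with its relatives called for DHT in BicR (2.09, adjusted p = 0.0494, edgeR) and UGT2B15 with UGT2B17 not called (-1.38, adjusted p = 0.149). Of 60 ratios under 3 scalings, 2 values changed side of 1, both for UGT2B11 between DHT and bicalutamide in LNCaP, and the largest move was 1.15-fold.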

Other observations

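ALB, the liver albumin gene, was all but absent from LNCaP, at 0.020, 0.018 and 0.038 CPM under ethanol, DHT and bicalutamide, each below the floor of 3 counts, and stood at 0.807, 1.17 and 0.753 CPM in BicR. TTR, a liver-made carrier protein gene, was also higher in BicR, at 1.66 on the log2 scale (SE 0.37, adjusted p = 0.0436, edgeR), while SERPINA1 was lower, at -1.62 (SE 0.32, adjusted p = 0.0292). SERPINA1 was highest in LNCaP ethanol, with 800 counts against 289 and 288 in the other LNCaP libraries and 77 to 152 in BicR, and without LNCaP ethanol its estimate was -1.19, with TTR at 1.69; both still passed. Of 7 liver markers tested, 2 were thus higher and 1 lower in BicR, where 1.58% of all genes were called higher and 2.84% lower.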
